A study of Mus musculus with 12 samples.

Results

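The genes described here are the adenosine receptors *Adora1*, *Adora2a*, *Adora2b* and *Adora3*, and the genes that form, move and clear adenosine, *Entpd1*, *Nt5e*, *Slc29a1*, *Slc29a2*, *Adk* and *Ada*. They were chosen by symbol and are 10 of the 49315 genes counted. RNA was sequenced from epididymal white adipose tissue (eWAT) of 12 male mice on a high-fat diet (HFD, 60% fat) for 12 weeks, giving 1 library for each of the 3 mice in a group. The 4 groups were Mir181a2b2flox/flox (flox) and Mir181a2b2-/- (KO) mice, each injected into the peritoneum every week with vehicle or with methotrexate (MTX) at 1 mg/kg. KO mice lack the Mir181a-2 and Mir181b-2 microRNA genes in the whole body, not in a chosen cell type, and flox mice carry the flanked locus intact. The ages of these mice are not given in the labels.

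Adenosine outside the cell is made from ATP. The ectoenzyme CD39, from *Entpd1*, removes phosphates down to AMP, and CD73, from *Nt5e*, turns AMP into adenosine. The transporters *Slc29a1* and *Slc29a2* let adenosine cross the plasma membrane, and inside the cell *Adk* returns it to AMP while *Ada* converts it to inosine. *Adora1* and *Adora3* act through inhibitory G proteins that lower cAMP, and *Adora2a* and *Adora2b* act through stimulatory G proteins that raise it. In fat, *Adora1* is known for holding back lipolysis. MTX is known to raise extracellular adenosine, and the design asks whether its effects in eWAT need the microRNAs of the deleted locus.

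The mature microRNAs of the deleted locus (chromosome 2, GRCm38, plus strand) are shown because they define the genotype. Positions are chr2:38852741-38852763 for miR-181a-5p and chr2:38853845-38853868 for miR-181b-5p, the sequences are those of RefSeq, and capitals mark the seed (bases 2 to 8), which both share.

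miR-181a-5p: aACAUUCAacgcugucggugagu
miR-181b-5p: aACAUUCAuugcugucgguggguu

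A match to this seed, TGAATGT on the transcript strand, was present in the annotated 3' UTR of 1 of the 10 genes, *Nt5e*, and in 17.5% of the 15383 tested genes with a 3' UTR, taking each gene's longest. The *Nt5e* match lies in the 3' UTR at chr9:88371842-88371848 (GRCm38, plus strand) and is shown in capitals with its flanks because *Nt5e* is the only such gene of the 10.

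Nt5e, 3' UTR: tcagttcttttTGAATGTgtagattagtt

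A match is a description of letters and not a measured binding site. RNA libraries of this kind could not check the deletion itself, since Mir181a-2 had 2 counts in flox MTX replicate 4 and 0 in the other 11 libraries, and Mir181b-2 had 0 in all 12.

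Depth was 19495310 to 23976469 counts per library, and levels are CPM, counts relative to the library total, scaled by TMM factors. The limit that a count of 0 allows, 3 counts, is 0.125 to 0.154 CPM in a library and covers counting error only. All 12 adipocyte markers were above 3 counts in every library, and their sum was 11880 to 64700 CPM of all counts. The libraries also differed in markers of other tissues. The summed epididymis markers were 4621, 12680 and 1500 CPM in flox vehicle replicates 1, 3 and 4, 426 CPM in flox MTX replicate 1, and 1.59 to 19.03 CPM in the other 8 libraries. The testis germ cell markers summed to 207 to 594 CPM in the flox vehicle libraries and 0.922 to 13.5 CPM elsewhere. The epididymis lies beside this fat pad in the body.

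Differences were tested with edgeR's quasi-likelihood test over 18702 genes. A call needed an adjusted p (Benjamini-Hochberg, over these genes) below 0.1 and a change of 1.5-fold or more. All log2 fold changes below come from this fit, with their SE. Between 3 mice and 3, an exact two-sided permutation test cannot go below 0.1, which is its p wherever the libraries of a pair of groups did not overlap.

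Under vehicle, KO eWAT had more of the ectoenzyme *Entpd1*, both transporters, the deaminase *Ada* and the receptors *Adora2a* and *Adora2b* than flox eWAT, and less *Nt5e*. Of the 10 genes, 7 were called, 6 of them higher and 1 lower, in a comparison in which 31.7% of all genes tested were called (13.9% higher and 17.8% lower). The libraries did not overlap for 7 of the 10, against 48.1% of all genes. MTX in flox mice was followed by 3 calls, *Ada* and *Entpd1* higher and *Nt5e* lower, where 24.2% of all genes were called (8.09% higher and 16.1% lower). In KO mice MTX gave none, and KO against flox under MTX gave none, with 0% of all genes called in each. A further fit left out flox vehicle replicates 1 and 3 and flox MTX replicate 1, which are 3 of the 4 libraries highest in epididymis markers. Flox vehicle replicate 4, also among those 4, was kept because the group would otherwise hold no library, and as its lone library it is assumed to vary like the other groups. Without these 3 libraries, the log2 fold changes in KO against flox under vehicle were -2.08 for *Nt5e*, 1.34 for *Entpd1* and 1.23 for *Ada*. They were 1.12 for *Slc29a1*, 0.96 for *Slc29a2*, 0.75 for *Adora2a* and 0.44 for *Adora2b*. The changes with MTX in flox mice were -2.14 for *Nt5e*, 0.94 for *Ada* and 0.57 for *Entpd1*. The calls lost in this fit are given with each gene below.

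**Figure D1:**
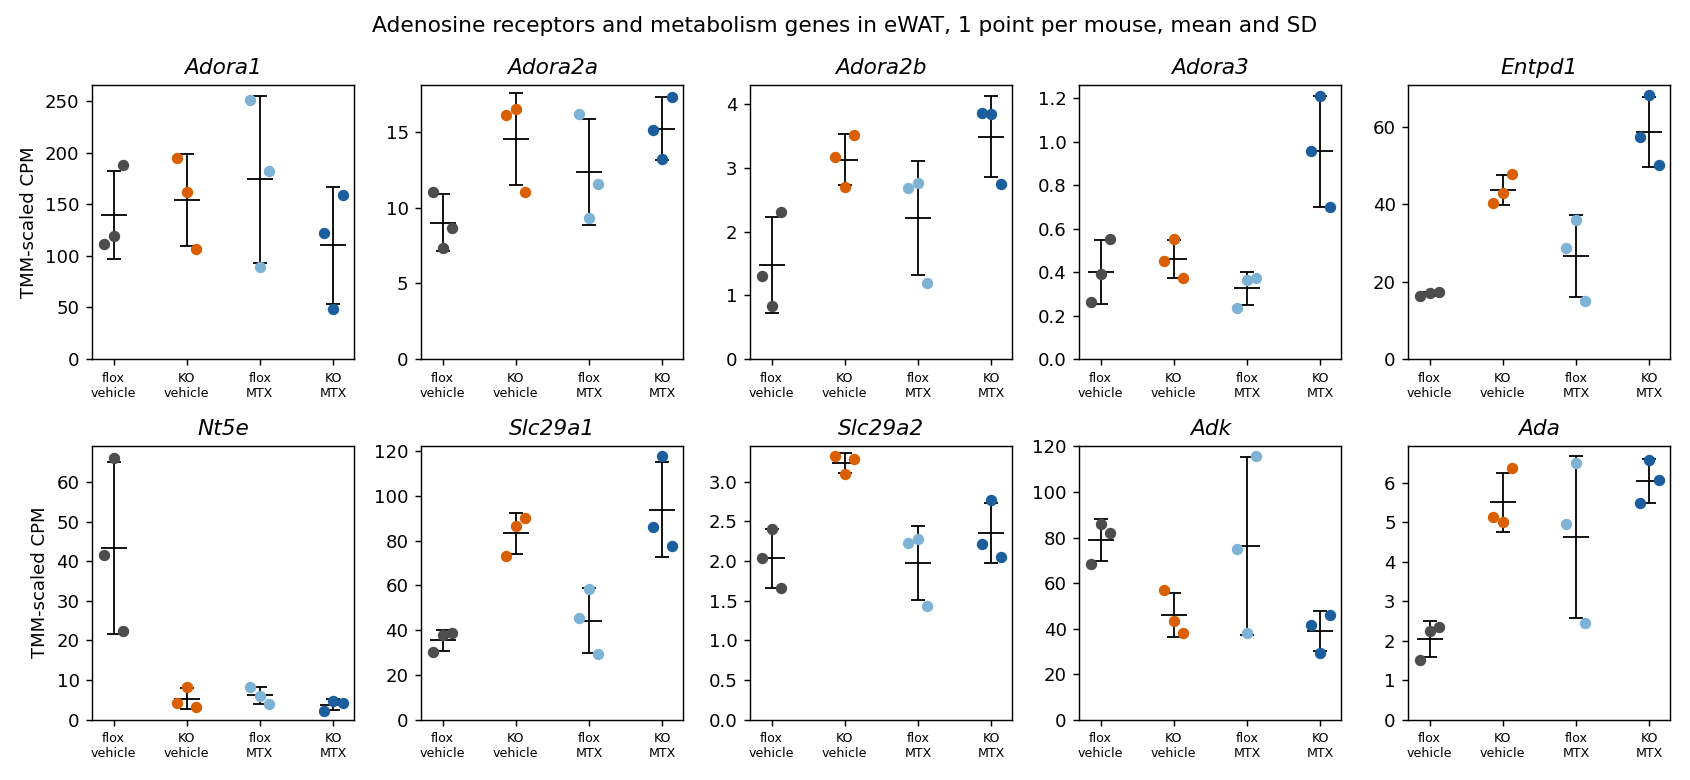
TMM-scaled CPM (linear axes from 0) of the 10 genes in the 4 groups, with 1 point per mouse and bars for the mean and SD of 3 mice. *Entpd1* and *Slc29a1* lie higher in both KO groups than in the flox group of the same treatment, and *Nt5e* is high in the flox vehicle group alone, at 22.5 to 66.0 CPM.

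Among the receptors, *Adora1* (chr1:134199223-134235431, GRCm38, minus strand) was by far the most abundant per length. Its level averaged 25.0 CPM per kb of exon over the 12 libraries, against 4.18 for *Adora2a*, 1.40 for *Adora2b* and 0.144 for *Adora3*. In CPM, *Adora1* was 111, 119 and 188 in the flox vehicle libraries (replicates 1, 3 and 4) and 195, 161 and 107 in the KO vehicle libraries (replicates 1, 2 and 3). It was 251, 89.3 and 182 in flox MTX (replicates 1, 2 and 4) and 122, 48.7 and 159 in KO MTX (replicates 2, 3 and 4), the order of replicates used throughout. All 4 groups overlapped, and the widest spread was within a group, flox MTX. The largest difference of group means, KO MTX below flox MTX, was a log2 fold change of -0.66 ± 0.45 (adjusted p = 0.384). The lowest library, KO MTX replicate 3, was also the lowest in adipocyte markers, at 11880 CPM.

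*Adora2a* (chr10:75316877-75334784, plus strand), a receptor known for restraining immune cells, was 11.1, 7.32 and 8.68 CPM in flox vehicle and 16.1, 16.5 and 11.1 CPM in KO vehicle. KO replicate 3 lay at the level of the highest flox library. The change was 0.69 ± 0.25 on the log2 scale, or 1.61-fold (adjusted p = 0.0592). In the MTX groups it was 16.2, 9.36 and 11.6 CPM in flox and 15.1, 13.2 and 17.4 CPM in KO, which overlapped. The call under vehicle was lost without flox replicate 3 or 4 or without KO replicate 1 or 2 (adjusted p from 0.108 to 0.167), and in the fit without the 3 libraries named above (0.75, adjusted p = 0.174).

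*Adora2b* (chr11:62248984-62266453, plus strand), a receptor that needs higher adenosine to respond, was low, with 19 to 89 counts per library. It was 1.30, 0.826 and 2.31 CPM in flox vehicle and 3.17, 2.71 and 3.52 CPM in KO vehicle, with every KO library above every flox library. The change was 1.08 ± 0.42 on the log2 scale, or 2.12-fold (adjusted p = 0.0728). Under MTX the levels were 2.69, 2.77 and 1.19 CPM in flox and 3.87, 3.86 and 2.75 CPM in KO. These overlapped only in that the lowest KO library fell just under the highest flox library, and the difference of 0.65 ± 0.41 was not called (adjusted p = 0.349). The vehicle call was lost without flox replicate 1 or 3 or any of the 3 KO libraries (adjusted p from 0.101 to 0.201), and with the replicate block (adjusted p = 0.197). Without flox vehicle replicates 1 and 3 and flox MTX replicate 1 the change was 0.44 (adjusted p = 0.603).

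*Adora3* (chr3:105870858-105908926, plus strand), the receptor named in the study's question on MTX and adenosine, was close to the limit of detection. Its counts were 6, 10 and 12 in flox vehicle, 9, 13 and 8 in KO vehicle, 5, 8 and 6 in flox MTX and 22, 28 and 16 in KO MTX. In CPM these were 0.260 to 0.554, 0.375 to 0.551, 0.236 to 0.375 and 0.699 to 1.21. The KO MTX libraries lay above all 9 others, while the other 3 groups overlapped. With MTX, KO exceeded flox by 1.55 ± 0.41 on the log2 scale, or 2.93-fold, and was not called. Its adjusted p of 0.104 was the lowest of any gene in this contrast and was shared with *Entpd1* and *Slc29a1*. MTX against vehicle in KO mice was 1.05 ± 0.39 (adjusted p = 0.504). *Adora3* passed the filter on low counts through the KO MTX group, since 2 of the other 9 libraries reached the filter's 0.458 CPM. Contrasts that hold the KO MTX group are therefore no independent test of this gene. Reads are also uncertain at this locus, because *Adora3* overlaps *Tmigd3* on the same strand, which had 20, 6 and 38 counts in flox vehicle and 0 to 5 in the other 9 libraries. Mast cells, which are known to express *Adora3*, had marker sums of 53.2, 396 and 64.8 CPM in KO MTX, 70.3 to 126 CPM in KO vehicle, 12.5 to 29.3 CPM in flox vehicle and 12.0 to 58.1 CPM in flox MTX. All 8 mast cell markers were above 3 counts in every KO library. Their part in the *Adora3* level was not tested.

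The receptor mixture was therefore set by *Adora1* in most libraries. It made up 85.8% ± 3.8 (SD, n = 3) of the per-length receptor level in flox vehicle, 79.7% ± 3.0 in KO vehicle, 83.6% ± 5.9 in flox MTX and 69.6% ± 12.4 in KO MTX. *Adora2a* took 11.1% ± 3.9, 14.4% ± 1.4, 12.1% ± 2.7 and 20.7% ± 6.8 in the same order. *Adora2b* took 2.77%, 5.44%, 4.06% and 8.49%, and *Adora3* 0.383%, 0.379%, 0.297% and 1.20%. Every group overlapped another in the *Adora1* share, and KO MTX replicate 3 stood lowest at 55.6%. These shares are descriptions, and no test was run on them.

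**Figure D2:**
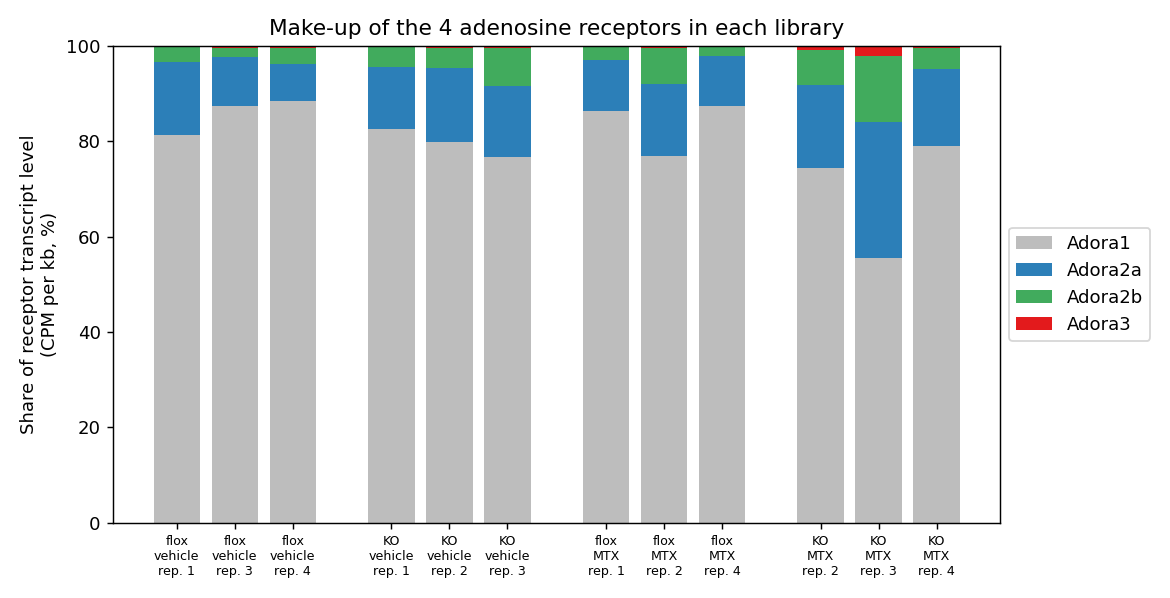
Share (%) of each of the 4 adenosine receptors in the summed receptor level (CPM per kb of exon), as 1 stacked bar per library. *Adora1* is the largest part in all 12 bars, from 55.6% in KO MTX replicate 3 to 88.5% in flox vehicle replicate 4, and *Adora3* is 0.126% to 2.15%.

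Of the ectoenzymes, *Entpd1* (chr19:40612366-40741602, plus strand) followed genotype closely. It was 16.3, 17.2 and 17.3 CPM in flox vehicle and 40.4, 42.9 and 47.8 CPM in KO vehicle. In the MTX groups it was 28.7, 35.99 and 15.1 CPM in flox and 57.4, 68.2 and 50.2 CPM in KO. Every KO library exceeded every flox library, with or without MTX, and every KO MTX library exceeded every KO vehicle library. Under vehicle, KO exceeded flox by 1.37 ± 0.25 on the log2 scale, or 2.58-fold (adjusted p = 0.00423), and it stayed called when any 1 of the 12 libraries was left out. The same contrast under MTX was 1.14 ± 0.25, or 2.20-fold (adjusted p = 0.104), which missed the limit. MTX against vehicle was 0.65 ± 0.25 in flox mice (adjusted p = 0.0906) and 0.42 ± 0.25 in KO mice (adjusted p = 0.722). In the flox MTX group replicate 4 lay below all flox vehicle libraries and replicates 1 and 2 above them, and the flox call was lost in 9 of the 12 fits that left out a library. It was also lost with library size as the only scaling, with at least 10 counts in every library, with the replicate block, with the 6 libraries alone and without the 3 libraries named above (adjusted p from 0.138 to 0.631). The 2 MTX effects were not shown to differ, as the interaction was -0.23 ± 0.35 (adjusted p = 0.776).

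*Nt5e* (chr9:88327197-88372092, plus strand) moved the other way and had the largest change of the 10. It was 41.5, 66.0 and 22.5 CPM in flox vehicle and 4.23, 8.34 and 3.33 CPM in KO vehicle. With MTX it was 8.31, 6.05 and 4.06 CPM in flox and 2.31, 4.85 and 4.24 CPM in KO. All 3 flox vehicle libraries lay above the other 9, and the other 3 groups overlapped. The vehicle contrast of KO with flox was -3.03 ± 0.48 on the log2 scale, or 8.15-fold lower (adjusted p = 0.00314). MTX against vehicle in flox mice was -2.81 ± 0.48, or 7.03-fold lower (adjusted p = 0.00551). Both contrasts use the same 3 flox vehicle libraries. The order within that group, replicate 3, then 1, then 4, was also the order of the summed epididymis markers given above. Flox MTX replicate 1, next in those markers, had the highest *Nt5e* of its group. Other libraries did not follow this order. KO vehicle replicate 2, the highest in *Nt5e* outside flox vehicle, had 5.60 CPM of the markers, the lowest of its group. Flox MTX replicates 2 and 4, with 6.05 and 4.06 CPM of *Nt5e*, had 5.22 and 19.03 CPM of the markers. Without flox vehicle replicates 1 and 3 and flox MTX replicate 1, the KO change was -2.08 (adjusted p = 0.0691) and still called, and the MTX change in flox mice was -2.14 (adjusted p = 0.102) and not called. The library that remained in flox vehicle, replicate 4, had 1500 CPM of those markers, so the share of the *Nt5e* level from epididymis could not be told apart from that from fat. The interaction was 2.33 ± 0.66 (adjusted p = 0.151) and was not called, where 0.989% of all genes were.

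The transporters moved with genotype under vehicle. *Slc29a1* (chr17:45585200-45599606, minus strand), the main equilibrative nucleoside transporter, had the second highest level per length of the 10 genes, at 16.0 CPM per kb. It was 30.1, 37.9 and 38.5 CPM in flox vehicle and 72.9, 86.6 and 90.1 CPM in KO vehicle. In the MTX groups it was 45.2, 58.2 and 29.3 CPM in flox and 86.0, 118 and 77.6 CPM in KO, so that the KO libraries again lay above all flox libraries. KO against flox was 1.23 ± 0.24 on the log2 scale under vehicle, or 2.34-fold (adjusted p = 0.00478), and 1.08 ± 0.24 under MTX, or 2.12-fold (adjusted p = 0.104). The vehicle call held when any 1 library was left out. MTX changed *Slc29a1* by 0.32 ± 0.24 in flox mice (adjusted p = 0.368) and by 0.17 ± 0.24 in KO mice (adjusted p = 0.894), neither of which was called.

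*Slc29a2* (chr19:5023860-5031972, plus strand), the second equilibrative transporter, was much lower than *Slc29a1* per length, at 0.795 CPM per kb. It was 2.04, 2.40 and 1.66 CPM in flox vehicle and 3.33, 3.09 and 3.28 CPM in KO vehicle, without overlap, and 2.22, 2.27 and 1.44 CPM in flox MTX and 2.22, 2.77 and 2.05 CPM in KO MTX. The KO vehicle group was the highest, and all KO MTX libraries lay below it. In vehicle-treated mice the KO change was 0.67 ± 0.27 on the log2 scale, or 1.59-fold (adjusted p = 0.0899). That call was lost in 7 of the 12 fits that left out a library, those without flox vehicle replicate 1 or 4, any KO vehicle library or KO MTX replicate 2 or 4. It was also lost with the 6 libraries alone (adjusted p = 0.118), library size as the only scaling (0.146), the replicate block (0.185), no filter (0.191) and without the 3 libraries named above (0.189). MTX against vehicle in KO mice was -0.46 ± 0.27 (adjusted p = 0.726).

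Of the enzymes that clear adenosine, *Ada* (chr2:163726584-163750239, minus strand) was low but distinct, with 35 to 152 counts. It was 1.52, 2.24 and 2.35 CPM in flox vehicle and 5.14, 4.997 and 6.37 CPM in KO vehicle. In the MTX groups it was 4.96, 6.50 and 2.44 CPM in flox and 5.48, 6.59 and 6.08 CPM in KO. The flox vehicle libraries were the 3 lowest of the 12, with flox MTX replicate 4 next. The KO change under vehicle was 1.43 ± 0.34 on the log2 scale, or 2.70-fold (adjusted p = 0.00975), and was called whichever library was left out. MTX against vehicle in flox mice was 1.19 ± 0.34, or 2.28-fold (adjusted p = 0.0332), and was not called without flox vehicle replicate 1 (adjusted p = 0.101), with the replicate block (0.107), with the 6 libraries alone (0.179) or without the 3 libraries named above (0.475). In KO mice MTX gave 0.14 ± 0.33 (adjusted p = 0.953), and the interaction of -1.05 ± 0.47 did not pass (adjusted p = 0.324). KO against flox under MTX was 0.38 ± 0.33 (adjusted p = 0.496), with overlap.

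*Adk* (chr14:21052574-21448569, plus strand) was lower in every KO than in every flox library under vehicle, but without a call, and the MTX groups overlapped. It was 68.3, 85.9 and 82.0 CPM in flox vehicle and 56.8, 43.5 and 37.9 CPM in KO vehicle. With MTX it was 75.1, 38.0 and 116 CPM in flox and 41.6, 29.2 and 46.1 CPM in KO, with flox MTX replicate 2 below 2 of the KO libraries. KO against flox was -0.77 ± 0.33 on the log2 scale under vehicle (adjusted p = 0.104) and -0.97 ± 0.33 under MTX (adjusted p = 0.128). Under vehicle the adjusted p fell between 0.0189 and 0.098 with RLE factors, with library size as the only scaling, with at least 10 counts in every library, with the 6 libraries alone and with DESeq2, and leaving out flox MTX replicate 2 or 4 gave 0.0257 and 0.0518. The adjusted p was 0.116 with no filter, 0.221 with the replicate block, 0.105 to 0.283 with any other library left out and 0.351 without the 3 libraries named above. The lowest *Adk* library, KO MTX replicate 3, was the lowest in adipocyte markers, and flox MTX replicate 4, the highest in *Adk*, had 63250 CPM of them, second to flox vehicle replicate 1 with 64700 CPM. Other libraries did not follow this order, since flox vehicle replicate 3, second in *Adk*, had 26660 CPM of the markers, and flox MTX replicate 2, with 38.0 CPM of *Adk*, had 38890 CPM. The part of the adipocyte share in the *Adk* level was not tested.

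**Figure D3:**
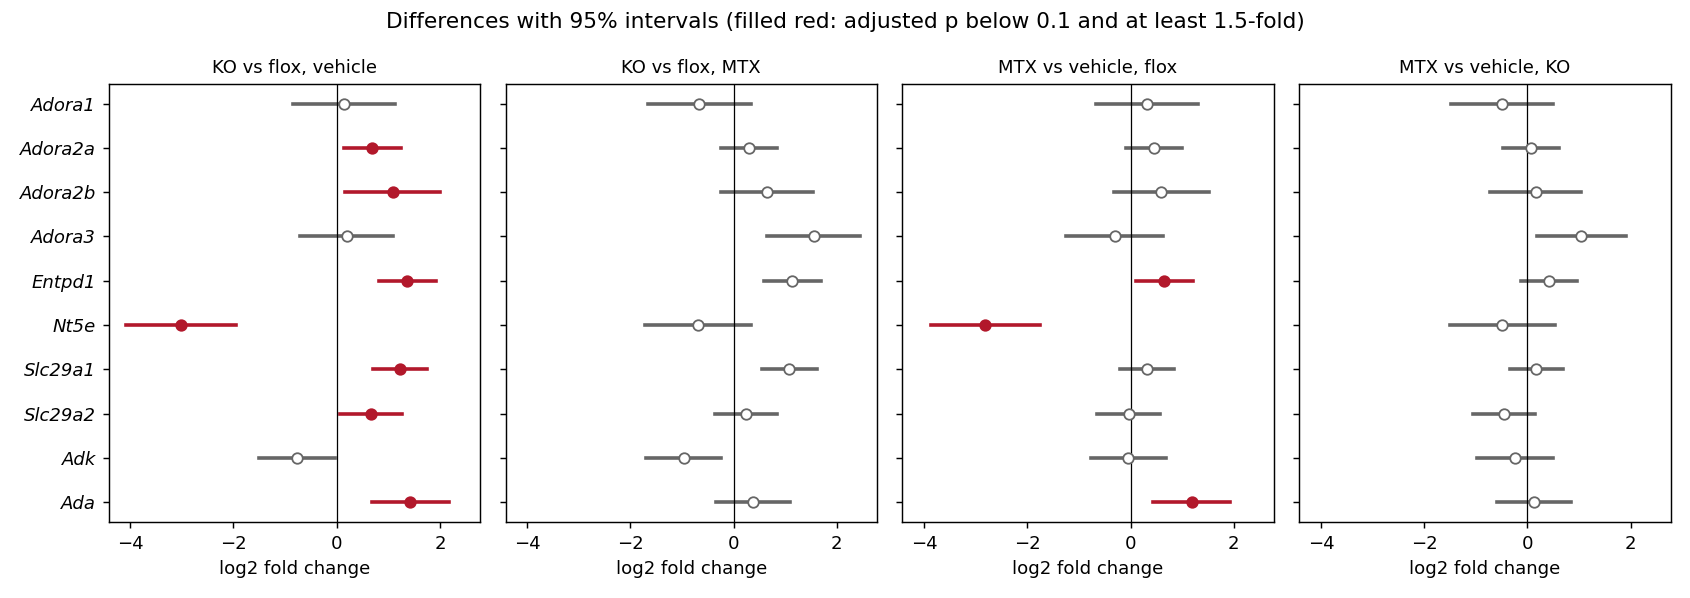
Log2 fold change (x axis) with its 95% interval for the 10 genes in the 4 comparisons, from the edgeR fit. Red filled points are called. KO against flox under vehicle has 7 called genes, MTX against vehicle in flox mice has 3, and the other comparisons have none.

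In MTX against vehicle in flox mice, the libraries of 2 of the 10 genes, *Ada* and *Nt5e*, did not overlap, where 28.3% of all genes did not. With MTX, the contrast of KO with flox had a lowest adjusted p of 0.104 over all genes, although 4576 genes had an unadjusted p below 0.05. DESeq2 called 2740 of 34600 genes there, 3 of the 10 among them (*Entpd1* and *Slc29a1* higher, *Adk* lower). *Entpd1* and *Slc29a1* did not overlap in that comparison, where 26.8% of all genes did not. *Adora3*, which passed the filter through the KO MTX group, is left out of this count and the next. MTX against vehicle in KO mice had 1491 genes at an unadjusted p below 0.05, and DESeq2 called 276 of 34600 genes, none of the 10. *Entpd1* and *Slc29a2* did not overlap there, against 20.7% of all genes. For the interaction none of the 10 was called by edgeR, and *Nt5e* was called by DESeq2 (adjusted p = 0.0202), with 1225 of 34600 genes.

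*Entpd1*, *Slc29a1* and *Ada* were higher in KO than in flox eWAT under vehicle, and so were macrophage markers. *Adora2a*, *Adora2b* and *Slc29a2* were called higher there too. Under MTX the KO and flox libraries of *Ada* overlapped. All 12 macrophage markers were detected in every library, and all 12 were called higher in KO under vehicle, with a median log2 fold change of 2.67 against -0.06 for all genes. Their sum was 543 to 1010 CPM in flox vehicle, 3880 to 7476 CPM in KO vehicle and 5765 to 10360 CPM in KO MTX. In flox MTX it was 2229, 4641 and 630 CPM in replicates 1, 2 and 4, and 10 of the 12 markers were called higher with MTX in flox mice. Within flox MTX all 3 genes had the order of this sum, with replicate 2 highest and replicate 4 lowest. Within KO vehicle and within KO MTX *Entpd1* and *Slc29a1* had its order and *Ada* did not, and within flox vehicle none of the 3 genes had it. Endothelial cells are also known to carry CD39, and their markers summed to 428 to 662 CPM in flox vehicle, 922 to 1445 CPM in KO vehicle, 416 to 781 CPM in flox MTX and 629 to 1079 CPM in KO MTX, and 9 of 10 were called higher in KO under vehicle. Fibroblast markers also rose, with 7 of 8 called. In whole tissue more cells of a type and more RNA per cell cannot be told apart, and the part of these cells in the 3 genes was not tested. Without flox vehicle replicates 1 and 3 and flox MTX replicate 1, the KO changes were 1.34 for *Entpd1* (adjusted p = 0.121), 1.12 for *Slc29a1* (adjusted p = 0.144) and 1.23 for *Ada* (adjusted p = 0.191), close to the values above in size and no longer called.

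**Figure D4:**
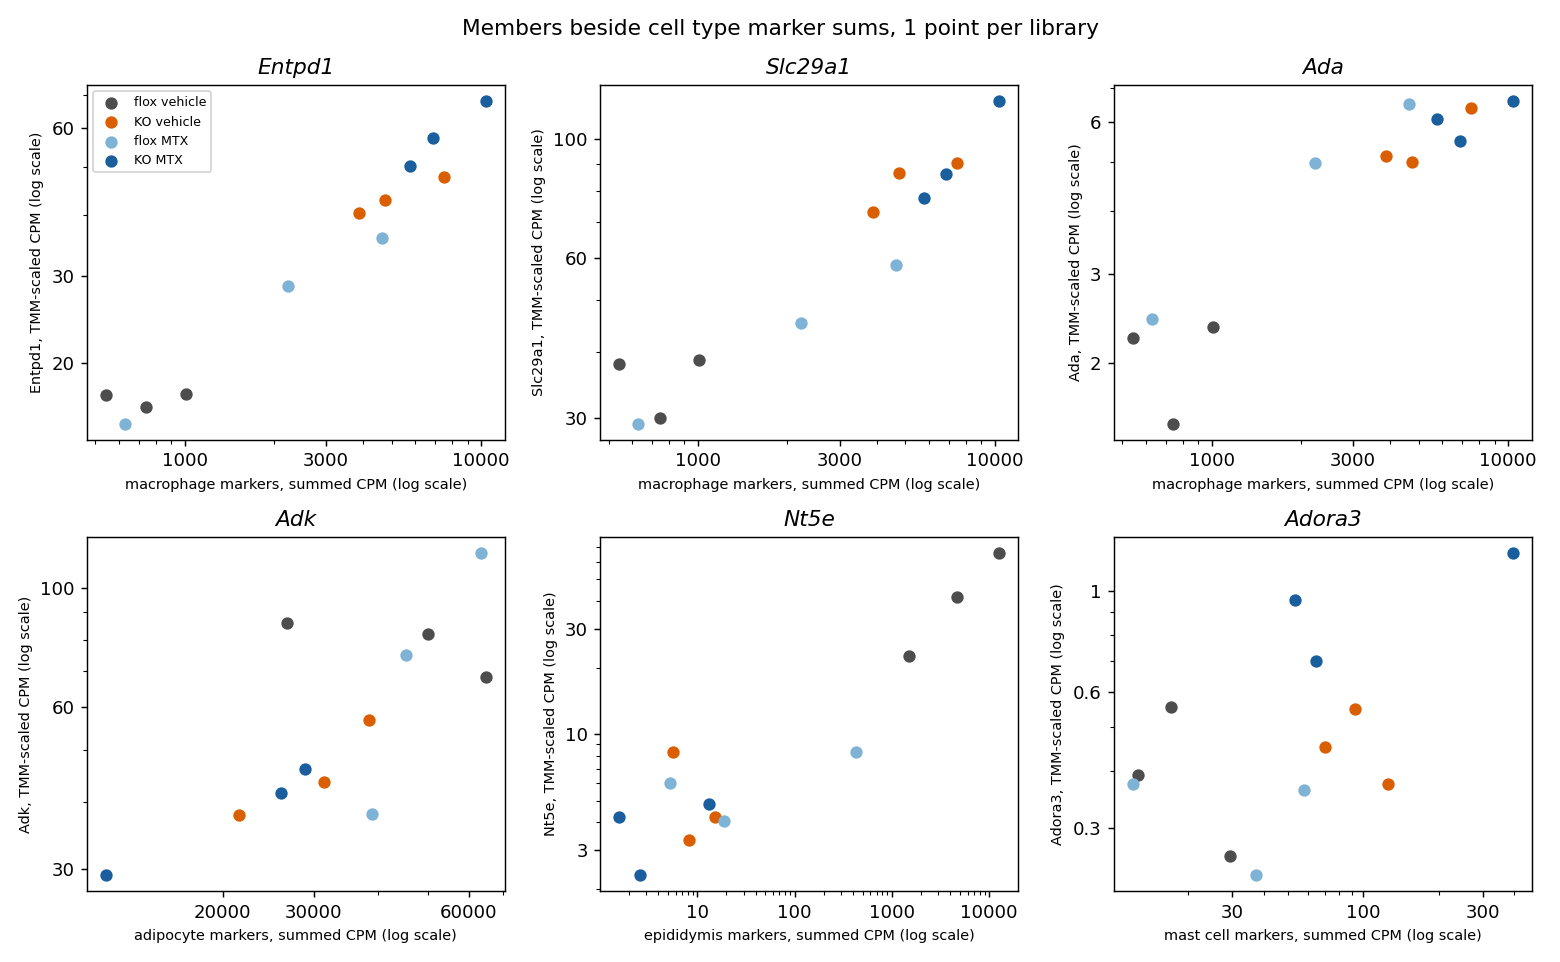
TMM-scaled CPM of 6 of the genes (y axes, log scale) against the summed CPM of a marker list (x axes, log scale), with 1 point per library. *Entpd1*, *Slc29a1* and *Ada* are plotted on macrophage markers, *Adk* on adipocyte markers, *Nt5e* on epididymis markers and *Adora3* on mast cell markers. The 3 flox vehicle libraries and flox MTX replicate 4 sit together at 543 to 1010 CPM of macrophage markers, and the *Nt5e* levels above 20 CPM are the 3 libraries with 1500 CPM or more of epididymis markers.

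The promoters of these 3 genes are shown because they rose together in KO eWAT. Each window is 250 bases before to 50 after a RefSeq start (GRCm38.p6), taking the start nearest the 5' end of the gene where there are several. Capitals mark CAGAC, the letters of a SMAD box, and GGGCGG, a GC box, on either strand. *Ada* is at chr2:163750190-163750489 (minus strand), *Entpd1* at chr19:40612116-40612415 (plus strand) and *Slc29a1* at chr17:45599569-45599868 (minus strand).

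Ada promoter: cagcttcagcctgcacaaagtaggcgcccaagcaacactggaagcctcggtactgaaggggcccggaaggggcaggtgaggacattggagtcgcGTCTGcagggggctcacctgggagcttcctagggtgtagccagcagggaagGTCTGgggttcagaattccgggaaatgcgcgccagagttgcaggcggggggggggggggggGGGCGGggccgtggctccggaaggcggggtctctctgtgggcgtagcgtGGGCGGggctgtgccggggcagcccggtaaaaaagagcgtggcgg
Entpd1 promoter: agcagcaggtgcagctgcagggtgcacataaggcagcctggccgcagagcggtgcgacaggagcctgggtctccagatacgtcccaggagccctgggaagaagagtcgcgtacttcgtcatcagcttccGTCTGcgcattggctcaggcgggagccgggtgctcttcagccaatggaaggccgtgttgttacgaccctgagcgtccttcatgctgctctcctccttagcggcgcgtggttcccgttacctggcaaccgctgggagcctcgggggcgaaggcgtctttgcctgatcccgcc
Slc29a1 promoter: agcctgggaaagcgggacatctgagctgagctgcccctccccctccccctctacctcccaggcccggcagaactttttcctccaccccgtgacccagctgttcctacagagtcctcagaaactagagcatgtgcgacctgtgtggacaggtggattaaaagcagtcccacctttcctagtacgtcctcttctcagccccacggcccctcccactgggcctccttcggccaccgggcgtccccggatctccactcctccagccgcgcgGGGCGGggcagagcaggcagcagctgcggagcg

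*Ada* held 2 matches of CAGAC and 2 of GGGCGG, *Entpd1* held 1 and 0, and *Slc29a1* held 0 and 1. Of all 32851 promoter windows of this length, 49.6% held CAGAC and 35.7% held GGGCGG. None of the 3 windows held TGACGTCA, the full cAMP response element, which 1.79% of all windows held, or GAGGAAG, the letters of a PU.1 site, which 13.6% held. The GC content was 68.0% for *Ada*, 64.0% for *Entpd1* and 65.0% for *Slc29a1*. Sequences in a window say nothing of what binds there.

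The wider pathway did not move in a uniform direction. Of 17 other tested genes listed for adenosine formation and neighbouring steps, 3 were called higher and 4 lower in KO against flox under vehicle. Not every gene of the list makes adenosine, and 31.7% of all genes were called in this comparison (13.9% higher and 17.8% lower). The list's median log2 fold change was 0.00, against -0.06 for all genes. *Nt5c1b*, a cytosolic AMP nucleotidase, was 5.17 to 10.5 CPM in flox vehicle and 0.302 to 0.469 CPM in KO vehicle (log2 fold change -4.50 ± 0.76, adjusted p = 0.0034). *Enpp1*, an ectoenzyme that cuts ATP to AMP and pyrophosphate, was 21.8 to 144 CPM in flox vehicle and 7.81 to 12.9 CPM in KO vehicle (-2.95 ± 0.67, adjusted p = 0.00806). The acid phosphatase *Acp3*, which can make adenosine from AMP and is Acpp in the annotation used, was 9.93 to 22.5 CPM and 1.5 to 4.74 CPM (-2.24 ± 0.58, adjusted p = 0.0144), and *Entpd6* was the other gene called lower (-1.03 ± 0.35). *Enpp3* (1.19 ± 0.29), the ectoenzyme *Cd38* (0.88 ± 0.31) and the ATP channel *Panx1* (1.01 ± 0.38) were called higher. Flox MTX against flox vehicle also had 3 called higher (*Cd38*, *Nt5c* and *Panx1*) and 4 lower (*Entpd8*, *Enpp1*, *Acp3* and *Nt5c1b*), where 24.2% of all genes were called, with a median of -0.05 against 0.05 for all genes. There *Enpp1* fell to 3.31 to 15.2 CPM (-2.89 ± 0.67, adjusted p = 0.0149) and *Nt5c1b* to 0.125 to 0.52 CPM (-4.60 ± 0.77, adjusted p = 0.00525), and *Entpd8* went from 1.46 to 3.30 CPM down to 0 to 0.0945 CPM, under the 3-count limit (adjusted p = 0.0122). The falls are measured against the flox vehicle libraries that carry epididymis and testis transcripts, and the part of these in them was not tested. *Nt5c1b* was also called in the interaction (5.06 ± 1.06, adjusted p = 0.089). In KO vehicle and flox MTX it had at most 0.52 CPM, near the filter's 0.458 CPM. Contrasts with flox vehicle, where it was high, may therefore not be an independent test of *Nt5c1b*. With the 3 libraries named above left out, *Nt5c1b* was -3.78 in KO under vehicle and -4.31 with MTX in flox mice, and its interaction of 4.76 was no longer called. The calls of the other genes of this list were lost, and *Enpp1* was then -1.15 and -1.22. The flox vehicle library kept in that fit, replicate 4, had 1500 CPM of epididymis and 207 CPM of testis markers. The fit therefore cannot separate those tissues from fat.

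Of 12 tested genes listed for adenosine clearance, transport and neighbouring steps, none was called higher and 2 lower in KO under vehicle. These were *Dpp4*, the peptidase CD26 that binds extracellular adenosine deaminase, and *Ahcyl2*, and not every gene of the list acts on adenosine itself. The count is set against the 31.7% of all genes called, and the list's median was -0.33. *Dpp4* was 44.0 to 70.6 CPM in flox vehicle and 25.3 to 32.0 CPM in KO vehicle (-0.96 ± 0.27, adjusted p = 0.0225). *Ahcyl2* was 80.2 to 154 CPM and 62.2 to 90.3 CPM (-0.82 ± 0.34, adjusted p = 0.088). Neither was called with those 3 libraries left out (adjusted p = 0.319 for *Dpp4* and 0.157 for *Ahcyl2*). None was called with MTX in flox mice.

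Of 31 genes listed for receptor signaling through cAMP, 6 were called higher and 5 lower in KO under vehicle, against 31.7% of all genes called. The list also holds genes that break down, sense or act after cAMP, and its median log2 fold change was -0.0031. *Adcy4*, an adenylyl cyclase, rose from 12.8 to 17.4 CPM in flox to 32.5 to 41.5 CPM in KO (1.32 ± 0.25, adjusted p = 0.00428), while the cyclase *Adcy8* fell from 17.8 to 33.7 CPM to 0.562 to 5.38 CPM (-2.91 ± 0.91, adjusted p = 0.0335). *Rapgef4*, a cAMP sensor, fell from 7.06 to 14.8 CPM to 2.72 to 5.42 CPM (-1.37 ± 0.39, adjusted p = 0.0223). The inhibitory G protein subunits went opposite ways, with *Gnai2* higher (0.91 ± 0.17, adjusted p = 0.004) and *Gnai1* lower (-1.18 ± 0.37, adjusted p = 0.0332), a pair named after their values were seen. With MTX in flox mice 2 were called higher (*Pde3a* and *Pde4b*) and 5 lower (*Adcy1*, *Adcy2*, *Adcy8*, *Pde4c* and *Rapgef4*), where 24.2% of all genes were called, with a median of 0.11. Of these *Adcy8* reached 0 to 1.42 CPM (adjusted p = 0.00816) and *Adcy2* 0.0625 to 0.409 CPM from 1.29 to 1.56 CPM (-2.71 ± 0.55, adjusted p = 0.00922), and *Rapgef4* fell to 2.63 to 4.77 CPM (-1.61 ± 0.39, adjusted p = 0.0185). The lowest flox MTX values of *Adcy8* and *Adcy2* were under the 3-count limit. *Adcy2* was also called in the interaction (3.30 ± 0.72, adjusted p = 0.097). These falls too are against flox vehicle libraries with 1500 to 12680 CPM of epididymis and 207 to 594 CPM of testis markers, and the part of those tissues was not tested. In the fit without the same 3 libraries, *Adcy4* was still called in KO under vehicle (1.55, adjusted p = 0.0491), and *Gnal*, a stimulatory G protein subunit named after its values were seen, was called as well (2.13, adjusted p = 0.0916). *Adcy8* (-2.45, adjusted p = 0.161), *Rapgef4* (-0.68, adjusted p = 0.422), *Gnai1* (-1.43, adjusted p = 0.15) and *Gnai2* (0.82, adjusted p = 0.12) were not. With MTX in flox mice *Adcy8* was still lower there, and the calls of the other genes were lost, with *Rapgef4* at -1.14 and *Adcy2* at -2.34. The interaction of *Adcy2* was no longer called. The flox vehicle library kept there, replicate 4, still carried epididymis and testis transcripts, so that fit cannot separate those tissues from fat.

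Of 14 tested receptors for ATP, ADP and related nucleotides, the substrates upstream of CD39, 5 were called higher and 3 lower in KO under vehicle, where 31.7% of all genes were called, with a median log2 fold change of 0.66 against -0.06 for all genes. *P2ry6*, a receptor for UDP, rose from 8.18 to 12.3 CPM to 54.7 to 109 CPM (2.97 ± 0.53, adjusted p = 0.00383). *P2rx7*, the ATP channel tied to the inflammasome, rose from 11.3 to 12.6 CPM to 40.6 to 64.8 CPM (2.11 ± 0.38), and *P2rx4*, *P2ry12* and *P2ry14* were the others called higher. The ATP channels *P2rx2* (6.38 to 36.6 CPM down to 0.234 to 0.508 CPM, -5.55 ± 1.04, adjusted p = 0.00432) and *P2rx3* (1.13 to 2.87 CPM down to 0.0469 to 0.381 CPM, -3.14 ± 0.59, adjusted p = 0.00443) fell, and *P2rx6* fell by 1.00 ± 0.34. With MTX in flox mice 6 were called higher and 2 lower, where 24.2% of all genes were called, with a median of 0.53 against 0.05. *P2ry10*, a lysophosphatidylserine receptor, rose from 0.865 to 1.85 CPM to 2.22 to 13.4 CPM (2.31 ± 0.65, adjusted p = 0.0329), *P2rx2* was 0 to 0.472 CPM (adjusted p = 0.00549), and *P2rx3* fell to 0.364 to 0.472 CPM (-2.13 ± 0.56, adjusted p = 0.0244). The lowest values of *P2rx3* in KO vehicle and of *P2rx2* in flox MTX were under the 3-count limit. In KO vehicle and flox MTX *P2rx2* and *P2rx3* had at most 0.508 CPM, near the filter's 0.458 CPM. The flox vehicle libraries alone could carry both past that filter, so contrasts that hold them may not be an independent test of these genes. *P2ry10* was highest in flox MTX replicate 2, in which B cell markers summed to 358 CPM and T cell markers to 96.3 CPM, against 15.7 to 40.7 CPM and 11.8 to 21.1 CPM in flox vehicle. The macrophage markers given above rose in both comparisons, and the falls are again against flox vehicle libraries that carry epididymis and testis transcripts. The part of these cells and tissues in the receptor levels was not tested. Without the 3 libraries, the KO changes under vehicle were -4.34 for *P2rx2* and -2.72 for *P2rx3*, and 2.64 for *P2ry6* and 2.02 for *P2rx7*, which lost their calls. With MTX in flox mice *P2rx2* was still lower, and *P2ry10* was 2.41 and lost its call. The flox vehicle library kept in that fit, replicate 4, still carried epididymis and testis transcripts, so the fit cannot separate those tissues from fat. None of the 4 lists had a call in KO against flox under MTX or in KO mice with MTX over all 12 libraries, and without the 3 libraries *Adcy4* was called in KO against flox under MTX (1.16, adjusted p = 0.0977). The vehicle contrast of KO with flox and that of MTX in flox mice share the flox vehicle libraries.

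The genes whose pattern over the 12 libraries was nearest to each of the 10 were found by the mean absolute difference of centred log2 CPM, among 15486 genes. For *Entpd1* they were *5031439G07Rik* (0.081) and *Snx8* (0.10), where *Entpd1* itself deviates by a mean of 0.67. For *Slc29a1* they were *Arhgef2* (0.081) and *Sh2b3* (0.082), for *Ada* *Fbln2* (0.12) and *Lhfp* (0.14), for *Adk* *Fbxl4* (0.092) and *Gm20632* (0.12), and for *Nt5e* *Patj* (0.24) and *Cap2* (0.28). For the receptors they were *Prss27* (0.14) and *Ly6h* (0.17) for *Adora1*, *Scarb1* (0.13) and *Ggt5* (0.16) for *Adora2a*, *Fkbp10* (0.16) and *Frrs1* (0.17) for *Adora2b* and *Wdr76* (0.28) and *Prc1* (0.29) for *Adora3*, and for *Slc29a2* *Gm38309* (0.11) and *Pheta1* (0.12). *Adora3* was least closely matched relative to its own mean deviation of 0.54, at low counts. These values describe likeness over libraries that share their groups.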

How the data were processed

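Per the labels, RNA was isolated with Trizol from white adipose tissue of 12 mice. The labels describe polyA RNA and reads of 150 bases, but in the methods ribosomal RNA was depleted and reads had 100 bases. It is not known here which applies. The submitters' processing notes name Trimmomatic 0.36, STAR 2.5.2b and featureCounts of Subread 1.5.2 with GRCm38. Whether counting used strand, and how multi-mapped reads were handled, is not given in the sources used here. How reads in stretches shared by overlapping genes, such as *Adora3* and *Tmigd3*, were counted is also not known. *Adora1*, *Adk*, *Entpd1* and *Slc29a1* overlap other counted genes too. The deposited values are raw read counts per Ensembl gene without normalization. Of the genes, 99.3% matched a symbol, and the rest hold 0.0688% of the counts.

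The counts were analysed in R 4.3.3 with edgeR 4.0.16 (TMM, filterByExpr by group with a minimum count of 10, 1 coefficient per group over the 12 libraries, quasi-likelihood F-test, Benjamini-Hochberg adjustment over 18702 genes). The fit had 8 residual degrees of freedom. In simulated counts for KO against flox under vehicle (18702 genes, 200 of them changed 4-fold), the procedure called 138 of the changed genes and 13 others. The simulated libraries did not differ in tissue make-up, and far fewer genes changed than were called in the data. These rates therefore need not hold for the calls given here. Levels per length use exon lengths of GENCODE M21, which also gave positions. Marker sums are CPM of all counts. The 2 libraries of a group that were closest still differed by a chi-square of 14.1 per degree of freedom, so none was counted as a duplicate.

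The members and lists were chosen with earlier results of these data known. Named genes are the 10 members, up to 3 genes per list and comparison (called, without overlap of libraries, largest change first), and for each member the 2 genes of most similar pattern. Other genes of the lists were named after their values were seen. Of 190 list genes 189 were found (not *Pnp*). *Entpd3*, *Entpd4*, *Nt5c1a*, *Panx3*, *Ampd1*, *Slc28a3* and *P2ry4* were found but were too low to be tested.

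Alternatives were RLE factors, library size alone, other filters, DESeq2 1.42.0, the 6 libraries of a comparison, a replicate block, other call limits and each library left out. The methods state that littermates matched by cage were used, and nothing states that mice of 1 group came from separate litters. The p-values set the difference of group means against the spread between these mice, which edgeR moderates over all genes tested.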

Additional observations from a re-analysis of the deposited data

How the results depend on the processing

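In KO against flox under vehicle, 7 of the 10 genes were called (5924 of all 18702), and 4 at an adjusted p below 0.05 (4843 of 18702). Leaving out each library in turn gave 4 to 8, beside 4640 to 6828 of all genes, with 4 without KO replicate 1 or 2. *Ada*, *Nt5e*, *Entpd1* and *Slc29a1* were called in all 12 of these fits. A further fit left out flox vehicle replicates 1 and 3 and flox MTX replicate 1, 3 of the 4 libraries highest in epididymis markers. This choice was made after seeing the data and kept flox vehicle replicate 4 as the lone library of its group. In that fit the changes under vehicle were -2.08 for *Nt5e*, 1.34 for *Entpd1*, 1.23 for *Ada* and 1.12 for *Slc29a1*. They were 0.96 for *Slc29a2*, 0.75 for *Adora2a* and 0.44 for *Adora2b*. The calls lost in it are given with each gene above. In KO against flox under MTX the count went from 0 to 2 with no filter (875 of 34653 genes called). It was 3 where every library had to reach 10 counts (1491 of 14132) and 3 with DESeq2 (2740 of 34600). When each library was left out it ranged from 0 to 4. It was 3 once flox vehicle replicate 3 was dropped (1028 of 19024) and 4 once flox MTX replicate 2 was (4064 of 19532). The last 2 counts include *Adora3*, which passed the filter through the KO MTX group. In MTX against vehicle in flox mice the count of 3 (4528 of 18702 genes called) fell to 1 with the replicate block (2771 of 18702). It was 1 with the 6 libraries alone (2167 of 17805). When each library was left out it ranged from 1 to 3, with 1 without flox vehicle replicate 1 (3778 of 19243). Without these 3 libraries the changes were -2.14 for *Nt5e*, 0.94 for *Ada* and 0.57 for *Entpd1*. For the interaction the count of 0 became 1 with no filter (472 of 34653 genes called) and 1 with DESeq2 (1225 of 34600). With each library left out it ranged from 0 to 1, with 1 without flox vehicle replicate 4 (1371 of 19402). The gene called was *Nt5e* each time. MTX in KO mice kept a count of 0 in every alternative. The cause of these changes was not tested.

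The labels do not say whether mice with the same replicate number are paired, and the correlations here cannot settle it. Correlations of residuals over the 12 same-number pairs had a median of 0.0579 (-0.404 to 0.421), against -0.0104 for the 42 other pairs. With the replicate block, KO against flox under vehicle kept 5 of the 7 calls, without *Adora2b* and *Slc29a2*.

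The direction turned for some values that were not called in the report. Without these 3 libraries the log2 fold change became -0.28 for *Adora1* and -0.26 for *Adora3* (KO against flox, vehicle), -0.47 for *Adora1*, -0.20 for *Adora2b* and 0.17 for *Slc29a2* (MTX in flox mice), and 0.36 for *Adora2b* (interaction). The replicate block gave 0.0076 for *Slc29a2* (MTX in flox mice), and library size as the only scaling gave 0.034 for *Adk* and 0.0061 for *Slc29a1* (interaction). Over the fits that left out a library, KO against flox under vehicle ranged from -0.0265 to 0.43 for *Adora1* and from -0.0311 to 0.49 for *Adora3*. MTX in flox mice ranged from -0.0509 to 0.65 for *Adora1*, -0.47 to 0.29 for *Adk* and -0.15 to 0.15 for *Slc29a2*. MTX in KO mice ranged from -0.10 to 0.17 for *Adora2a*, -0.73 to 0.0082 for *Nt5e* and -0.0237 to 0.29 for *Slc29a1*. The interaction ranged from -0.53 to 0.22 for *Adk*, -0.53 to 0.0387 for *Entpd1* and -0.39 to 0.0903 for *Slc29a1*.

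Counts over all genes moved too. KO against flox under vehicle went from 5924 to 1784 without these 3 libraries. KO against flox under MTX went from 0 to 875 (no filter), 1491 (at least 10 counts), 4 (6 libraries), 2740 (DESeq2), 334 (without these 3 libraries) and 0 to 4064 (each library left out). MTX in flox mice went from 4528 to 2198 (at least 10 counts), 2771 (block), 2167 (6 libraries), 1013 (without these 3 libraries) and 2219 (without flox vehicle replicate 3). MTX in KO mice went from 0 to 20 (no filter), 3 (6 libraries), 276 (DESeq2) and 215 (without KO replicate 3). The interaction went from 185 to 472 (no filter), 1 (at least 10 counts), 0 (block), 33 (adjusted p below 0.05), 1225 (DESeq2), 53 (without these 3 libraries) and 5 to 1371 (each library left out). Library size as the only scaling moved the median log2 fold change of all genes from 0.05 to -0.15 for MTX in flox mice, with 766 genes higher and 3607 lower in place of 1513 and 3015, from -0.05 to 0.12 for KO against flox under MTX, and from -0.05 to 0.13 for the interaction. Depth limits *Adora3* most, at 5 to 28 counts, and then *Adora2b*, *Slc29a2* and *Ada*.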
